A study of Rattus norvegicus with 12 samples.

Results

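Gene expression in alkali-burned rat corneas was compared with that in control corneas. The cornea is the clear front wall of the eye, and an alkali burn is a chemical injury of it. The comparison used 6 of the 12 libraries of the series, 3 labelled Alkali-burned and 3 labelled Control, and every gene with at least 1 FPKM (fragments per kilobase of gene, scaled to the library's total) in at least 3 of the 12 libraries. That rule kept 6112 of 30452 genes. The remaining 6 libraries, 3 labelled SF/HA and 3 labelled SF/HA-HEP-PAM, belong to a study of a silk patch worn on the eye that takes up mediators of inflammation. The labels give organism, tissue and group for each library. No strain, age, alkali, exposure or time after injury is given in the sources used here, the 4 abbreviations in the patch names are not spelled out, and whether the patched corneas were burned is not stated. Nor is it stated whether replicates came from separate animals, so p-values measure the spread between these samples, which may be technical.

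As background, the cornea has an outer stratified epithelium, a collagen stroma kept clear by resident keratocytes, and an inner endothelial layer that pumps water out. Alkali kills surface cells and reaches the stroma. In the repair that follows, epithelial cells migrate and change their keratins, keratocytes can become contractile myofibroblasts, and neutrophils and macrophages enter a tissue that normally holds few of them.

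The burned libraries were the deeper ones. They held 1173159, 1265298 and 1217277 reads assigned to genes in replicates 1 to 3, against 486264, 886348 and 1015788 in Control 1 to 3, and from 13781 to 13904 genes had a read against 12082 to 13055. A count of 0 allows up to 3 reads, which is 2.37 to 6.17 FPKM for a gene of 1 kb over these 6 libraries, for counting error only. Defining markers of epithelium (Krt12, Krt5, Pax6) and of keratocytes (Kera, Lum, Dcn) had reads in every library. Control 1 was richer in stroma than the other controls: the summed level of 6 keratocyte markers was 70100 RPM (reads scaled to the library's total) there against 27590 and 30660, and that of 6 epithelial markers was 33370 against 57690 and 57710. Alkali-burned 1 stood apart in summed neutrophil markers, 6645 RPM against 1287 and 1457. Nearly all of that sum came from S100a8 and S100a9, which are also abundant in stressed epithelium. In bulk tissue, fewer cells of a type and less RNA per cell cannot be told apart.

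More genes were higher than lower in burned corneas. Of the 6112 genes tested, 270 rose (4.42%) and 78 fell (1.28%), 348 in all (5.69%), at a limma adjusted p below 0.05 and a difference of more than 1 on the log2 scale in either direction. A log2 difference here is burned minus Control on the scale of log2(FPKM + 1), so it understates the change of genes under a few FPKM. The totals include short RNA genes called on very few reads. Snora33, called higher, had 0 reads in each Control library and 1 in each burned one. The largest fall, the mitochondrial transfer RNA gene AY172581.23, had 2, 1 and 1 reads in Control and 0 in each burned library. Protein-coding genes made up 250 of the rises and 68 of the falls. The 3 burned values lay wholly above the 3 Control values in 1167 genes (19.1%) and wholly below in 612 (10%). The median difference over all genes was 0.06. Of the called genes, 136 that rose and 31 that fell kept their call in each of the 6 fits that left out 1 library. Quantile normalization, which forces the libraries to 1 distribution, moved the median to -0.08 and gave 198 rises and 115 falls, a share of rises of 63.3% against 77.6%. Within the 6 libraries the first principal component took 42.5% of the variance and separated the groups, and the second took 23.9% and placed Control 1 at one end.

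**Figure D1:**
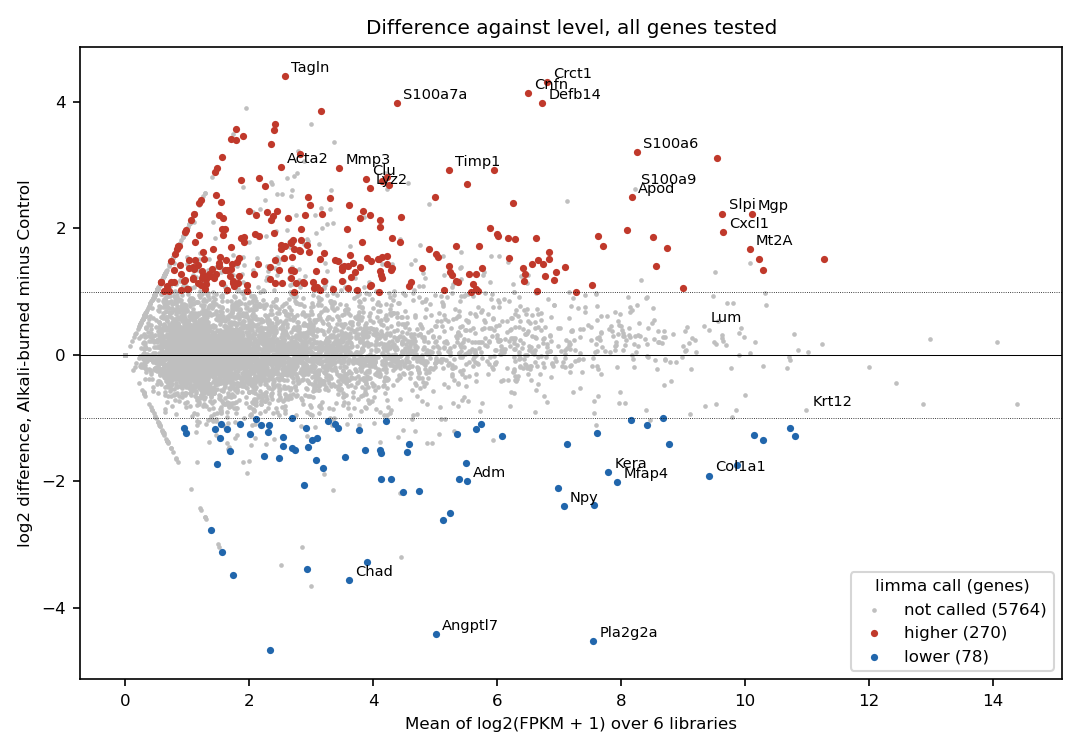
Difference against level for the 6112 genes tested. The horizontal axis is the mean of log2(FPKM + 1) over the 6 libraries and the vertical axis is the log2 difference, Alkali-burned minus Control, with dotted lines at 1 and -1; red points are the 270 genes that rose, blue points the 78 that fell and grey points the rest. The named falls of Angptl7 and Pla2g2a lie below -4, and Tagln, Crct1 and Cnfn lie above 4.

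Contractile genes of wound repair rose. Tagln, an actin-bundling protein of smooth muscle and myofibroblasts, measured 0.251, 0.275 and 0.360 FPKM in Control and 40.6, 21.0 and 22.05 FPKM in burned corneas. These values came from 1, 2 and 3 reads in the Control libraries and from 390, 218 and 220 reads in the burned ones, so the groups were far apart and the level in Control was at the detection floor (log2 difference 4.42, SE 0.47, adjusted p = 0.000537). Acta2, the smooth muscle actin that defines myofibroblasts, measured 1.265, 0.867 and 0.984 FPKM in Control and 21.9, 12.9 and 11.7 FPKM in burned corneas (log2 difference 2.97, SE 0.50, adjusted p = 0.00677). Tpm2, a tropomyosin that runs along actin filaments, measured 2.25, 1.98 and 2.59 FPKM in Control and 18.5, 16.02 and 18.0 FPKM in burned corneas (log2 difference 2.50, SE 0.19, adjusted p = 8.29e-05), and its partner Tpm1 measured 1.28, 0.867 and 0.865 FPKM in Control and 7.33, 5.06 and 6.46 FPKM in burned corneas (log2 difference 1.86, SE 0.19, adjusted p = 0.000486). For all 4 genes every burned library lay above every Control library, and Alkali-burned 1 was the highest.

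Of 26 myofibroblast and wound matrix genes tested, 8 rose and 1 fell, with a median difference of 0.71 against 0.06 over all genes. Besides the 4 contractile genes, Spp1 (osteopontin, a secreted phosphoprotein) rose by 3.33, the metalloproteinase inhibitor Timp1 by 2.92, the myosin light chain Myl9 by 1.64 and the matricellular protein Postn by 1.45. Sparc, another matricellular protein, fell (log2 difference -1.24, SE 0.32, adjusted p = 0.0397). Not called were the filament protein Vim at 1.12 (adjusted p = 0.0654), the growth factor binder Ccn2 at 1.21 (0.140), fibronectin Fn1 at 0.42 (0.496), the fibrogenic cytokine Tgfb1 at 0.20 (0.562), Thbs1 at 0.75 (0.162) and Tgfbi at -0.26 (0.680). Smooth muscle of vessels also carries Acta2 and Tagln; the 7 vessel markers summed to 31.5 to 78.2 RPM in Control and 23.9 to 51.4 in burned libraries, overlapping, with Pecam1 at 0 to 2 and 3 to 13 reads. Myl9 lost its call without Control 2 (adjusted p = 0.0767), Control 3 (0.0763) or Alkali-burned 1 (0.0797), Postn without Control 2 (0.0575) or Alkali-burned 1 (0.0568), and Sparc without any library but Control 2 (a difference of -0.78 without Control 1, and adjusted p from 0.0544 to 0.110 without the others).

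A matrix protease and its inhibitor rose. Mmp3 (stromelysin, which cleaves proteoglycans and activates collagenases) measured 3.04, 2.915 and 2.83 FPKM in Control and 38.4, 25.85 and 25.65 FPKM in burned corneas (log2 difference 2.95, SE 0.21, adjusted p = 6.22e-05). Timp1, which binds and blocks such enzymes, measured 14.9, 10.8 and 12.2 FPKM in Control and 154, 84.9 and 79.8 FPKM in burned corneas (log2 difference 2.92, SE 0.29, adjusted p = 0.000407). Both genes were more than 5 times as high in each burned library as in any Control library. The other 11 of the 13 protease genes tested were not called: the gelatinase Mmp9 measured 0.249, 0.546 and 0.477 FPKM in Control and 8.36, 1.34 and 2.19 FPKM in burned corneas (log2 difference 1.54, SE 0.65, adjusted p = 0.185), the membrane enzyme Mmp14 differed by -0.07, Mmp2 by 0.43 and the collagenase Mmp13 by 0.18. Mmp9 was highest in Alkali-burned 1, the library with the most reads on S100a8 and S100a9. The neutrophil markers Csf3r and Cxcr2 had 1 read each there, and the source of Mmp9 was not tested. In the plasminogen system, which generates plasmin at wound edges, 3 of 16 genes rose and 1 fell. The tissue activator Plat measured 2.31, 2.37 and 1.71 FPKM in Control and 9.28, 6.29 and 6.301 FPKM in burned corneas (log2 difference 1.39, SE 0.19, adjusted p = 0.00212), and F2rl1, a receptor cut open by serine proteases, fell from 10.4 ± 1.91 to 3.01 ± 0.810 FPKM (log2 difference -1.51, SE 0.20, adjusted p = 0.00163). The urokinase Plau differed by 1.16 (adjusted p = 0.0333) and was lost without any library but Alkali-burned 2 (adjusted p 0.0539 to 0.104). Without Control 2, Control 3 or Alkali-burned 1 the list gave 1 rise, Plat.

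**Figure D2:**
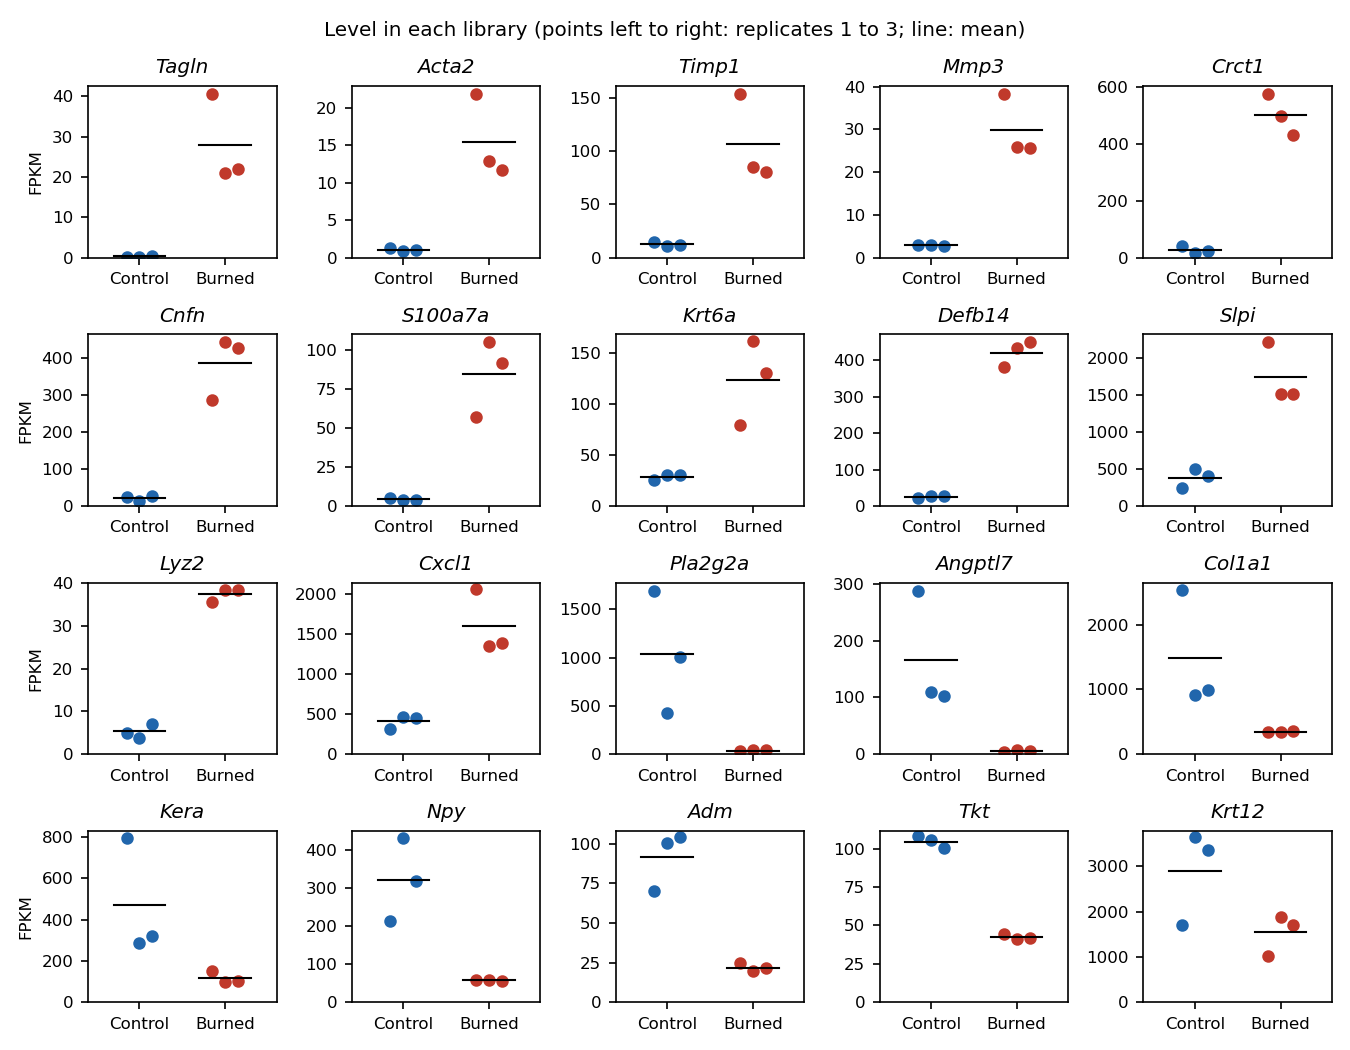
Level of 20 genes in each of the 6 libraries. Each panel is 1 gene, the vertical axis is FPKM from 0, blue points are Control and red points Alkali-burned replicates 1 to 3 from left to right, and lines are group means; the Krt6a panel is gene ENSRNOG00000068586. Groups do not overlap in any panel but that of Krt12, and Control 1 is the highest Control library for Angptl7, Col1a1 and Kera.

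Angptl7, Pla2g2a and Chad, named among the largest falls, all encode secreted proteins. Angptl7, an angiopoietin-like protein abundant in corneal stroma, measured 289, 109 and 103 FPKM in Control and 4.33, 7.675 and 6.35 FPKM in burned corneas (log2 difference -4.42, SE 0.43, adjusted p = 0.000314). Pla2g2a, a secreted phospholipase that also kills bacteria, measured 1694, 425 and 1005 FPKM in Control and 33.8, 39.3 and 40.55 FPKM in burned corneas (log2 difference -4.54, SE 0.52, adjusted p = 0.000861). Chad, a leucine-rich matrix protein, measured 67.7, 29.5 and 33.9 FPKM in Control and 4.68, 1.97 and 1.64 FPKM in burned corneas (log2 difference -3.56, SE 0.47, adjusted p = 0.00178). All 3 were low in all 3 burned libraries, and their Control libraries spread widely, by 2.81 times for Angptl7 and 3.98 times for Pla2g2a between the lowest and the highest. In the deposited coordinates, with build mRatBN7.2 named in the submitters' processing notes, Angptl7 lies at chr5:158932794-158937324 and Pla2g2a at chr5:151076442-151079014, both protein-coding.

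Stromal genes split in 2 directions. Of 25 keratocyte and stromal matrix genes, 6 fell and 5 rose. Falls included Mfap4, a microfibril-associated protein (922, 327.5 and 392.2 FPKM in Control and 141, 109 and 114 FPKM in burned corneas; log2 difference -2.02, SE 0.34, adjusted p = 0.00731), and keratocan, Kera, the keratan sulfate proteoglycan typical of keratocytes (794, 287.5 and 322 FPKM in Control and 153.5, 96.8 and 104 FPKM in burned corneas; log2 difference -1.85, SE 0.38, adjusted p = 0.0140). Both were lowest in Alkali-burned 2 and highest in Control 1, without overlap. The related proteoglycans were not called: lumican (Lum) measured 861, 379 and 518 FPKM in Control and 938.5, 689.7 and 672 FPKM in burned corneas (log2 difference 0.45, SE 0.29, adjusted p = 0.385) and decorin (Dcn) 336, 169 and 181 FPKM in Control and 471, 318 and 326.5 FPKM in burned corneas (log2 difference 0.75, SE 0.29, adjusted p = 0.151), with overlapping groups.

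Among the rises, Mgp, matrix Gla protein, an inhibitor of calcification, measured 792.5, 361.5 and 456 FPKM in Control and 2811, 2145 and 2256 FPKM in burned corneas (log2 difference 2.23, SE 0.26, adjusted p = 0.000988). Igfbp7, a secreted binder of insulin-like growth factors, measured 2.12, 1.07 and 1.23 FPKM in Control and 13.2, 7.99 and 8.37 FPKM in burned corneas (log2 difference 2.13, SE 0.26, adjusted p = 0.00121), and Efemp2, a fibulin of elastic fibres, rose by 1.46. Apod, a lipid carrier of connective tissue counted in the lipid list, measured 194, 88.3 and 102 FPKM in Control and 939.5, 569.7 and 599 FPKM in burned corneas (log2 difference 2.50, SE 0.34, adjusted p = 0.00202). For these genes all burned libraries exceeded Control 1, the stroma-rich control. The list gave 3 rises without Control 2, Alkali-burned 2 or Alkali-burned 3 and 8 without Control 1. Kera missed the threshold without Alkali-burned 2 or Alkali-burned 3 (adjusted p = 0.0520 in both fits).

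Some collagen chains fell. Of the 16 collagen chain and assembly genes that passed the FPKM rule, 5 fell and 1 rose, with a median of -0.65. Col1a1, the main fibril chain, measured 2542, 909.9 and 990.0 FPKM in Control and 338, 347 and 365 FPKM in burned corneas (log2 difference -1.91, SE 0.36, adjusted p = 0.0103). Col6a1 and Col6a2, chains of the beaded filaments between fibrils, fell by 1.97 each (adjusted p = 0.007465 and 0.00899). The burned values of Col1a1 lay within 338 to 365 FPKM while Control 1 was 2.57 times the next Control library. Col1a2 and Col6a3 also fell (-1.41 and -1.46), and the list gave 3 falls without Control 1 or any 1 burned library: without Control 1 the 2 differences were -0.95 and -0.93, under the fold threshold, and without a burned library adjusted p was 0.0739 to 0.0948. Col3a1, a chain of wound collagen, measured 8.98, 5.115 and 6.24 FPKM in Control and 4.98, 3.45 and 3.18 FPKM in burned corneas and did not pass (log2 difference -0.66, SE 0.24, adjusted p = 0.125). P4ha2, a proline hydroxylase, rose by 1.14, or by 0.92 without Alkali-burned 1. Summed keratocyte markers were 27590 to 70100 RPM in Control and 24340 to 32510 in burned libraries. That sum contains Col1a1 itself, with 21019 of its 34085 reads in Control 1 and 6740 of 38138 in Alkali-burned 1. It is therefore no measure of cell number apart from these falls, and the part of cell number in them was not tested.

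Some genes of the differentiated epithelium fell. Tkt, a pentose phosphate enzyme stored as a corneal crystallin, measured 108.2, 105 and 100.1 FPKM in Control and 44.3, 41.1 and 41.6 FPKM in burned corneas (log2 difference -1.28, SE 0.23, adjusted p = 0.00863). Dapl1, a gene of differentiating epithelium, measured 33.0, 79.6 and 64.3 FPKM in Control and 7.71, 14.5 and 14.2 FPKM in burned corneas (log2 difference -2.15, SE 0.38, adjusted p = 0.00868). In both genes no burned library reached the lowest Control value. Krt12, the keratin specific to corneal epithelium, measured 1697, 3655 and 3354 FPKM in Control and 1033, 1878 and 1717 FPKM in burned corneas, so Alkali-burned 2 and 3 overlapped Control 1, and the difference did not pass (log2 difference -0.88, SE 0.31, adjusted p = 0.113). Its basal partner Krt5 passed on p with a difference of -0.98, just under the fold threshold (adjusted p = 0.0397).

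Over 17 epithelial structural and crystallin genes 4 fell and 2 rose (median -0.71), and 2 fell without Control 2, Control 3, Alkali-burned 1 or Alkali-burned 3. The crystallin Aldh3a1 fell (log2 difference -1.27, SE 0.29, adjusted p = 0.0239) and so did the secreted Ly6 protein Slurp1 (log2 difference -1.74, SE 0.44, adjusted p = 0.03535). Aldh3a1 passed in full and without Control 1 and lost its call without each of the other 5 libraries (adjusted p 0.0599 to 0.0820), as did Slurp1 (0.0634 to 0.121). Clu, a secreted chaperone of the ocular surface, rose from 4.69 ± 1.07 to 38.8 ± 12.4 FPKM (log2 difference 2.78, SE 0.25, adjusted p = 0.000197), and Psca, a small membrane-anchored protein, rose by 1.34. Of 17 transcription factors of this epithelium 1 was called (5.88%, close to the 5.69% over all genes). It was Pax6, the master regulator of eye development, which fell (log2 difference -1.16, SE 0.27, adjusted p = 0.02475). Pax6 measured 7.98, 12.1 and 11.1 FPKM in Control and 2.63, 4.77 and 5.15 FPKM in burned corneas. Its call was lost without Control 2 (adjusted p = 0.0857), Control 3 (0.0755) or Alkali-burned 1 (0.0810). Klf4 differed by -0.65 and Klf5 by -0.71. The 6 epithelial markers summed to 33370 to 57710 RPM in Control and 19510 to 29050 in burned libraries, without overlap. The remaining marker, Krt15, went the other way without being called (log2 difference 1.01, adjusted p = 0.216). It measured 6.33, 9.81 and 18.9 FPKM in Control and 21.7, 23.0 and 22.55 FPKM in burned corneas. The sum of the 6 markers contains Tkt, Aldh3a1, Pax6, Krt12 and Krt5 themselves. It is therefore no measure of cell number apart from these falls, and the part of cell number in them was not tested.

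Some junction genes fell. Of 23 tested, 5 fell, none rose and the median was -0.74; 12 had every burned value below every Control value, against 10% of all genes. Gjb5, a connexin of gap junctions, measured 5.65, 6.20 and 8.11 FPKM in Control and 2.63, 2.17 and 1.97 FPKM in burned corneas (log2 difference -1.22, SE 0.22, adjusted p = 0.00868) and was the member whose call held without any 1 library. The tight junction claudins, Cldn4 (-1.11) and Cldn7 (-1.18), and the desmosome genes Dsp (-1.09) and Dsc3 (-1.11) also fell. These calls were less firm: the list gave 1 fall without Control 2 and 2 falls without Control 3, Alkali-burned 1 or Alkali-burned 3. Cldn4 and Cldn7 were lost without Control 2 (adjusted p = 0.0777 and 0.105), Control 3 (0.0751 and 0.0967), Alkali-burned 1 (0.0669 and 0.108) or Alkali-burned 3 (0.0705 and 0.0811), Dsp without any library but Alkali-burned 2 (0.0721 to 0.126), and Dsc3 without Control 2, where its difference was -0.98. E-cadherin, Cdh1, differed by -0.28 (adjusted p = 0.375). Among 16 genes of hemidesmosomes, laminins, integrins and migration limma called 0, with 2 at an unadjusted p below 0.05, and voom on the reads called 1 of 24, lower. The values of Itgb4 (0.06), Lamb3 (0.31), Col17a1 (-0.15) and Hbegf (0.45) stayed within 0.5 of 0.

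Some genes of skin-type cornification rose. Crct1, a cysteine-rich protein of the cornified envelope, measured 40.7, 14.9 and 22.7 FPKM in Control and 577, 501 and 431 FPKM in burned corneas (log2 difference 4.32, SE 0.59, adjusted p = 0.002055). Cnfn, cornifelin of the same envelope, measured 24.9, 13.1 and 26.6 FPKM in Control and 288, 444 and 428 FPKM in burned corneas (log2 difference 4.14, SE 0.52, adjusted p = 0.00134). S100a7a, psoriasin, an antimicrobial S100 protein of inflamed skin, measured 4.79, 3.94 and 4.01 FPKM in Control and 56.7, 105 and 91.5 FPKM in burned corneas (log2 difference 3.98, SE 0.24, adjusted p = 4.24e-05). In all 3 genes the lowest burned library was more than 10 times the highest Control library, and Crct1 rested on 4 to 7 reads in Control against 159 to 205.

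Of 17 cornified envelope genes 6 rose and 1 fell (median 1.12). The cross-linked precursor Sprr3 measured 5.002, 6.86 and 7.98 FPKM in Control and 23.5, 72.7 and 62.3 FPKM in burned corneas (log2 difference 2.69, SE 0.55, adjusted p = 0.0139), and Tgm2, a cross-linking transglutaminase, 31.0, 36.0 and 29.4 FPKM in Control and 63.9, 72.7 and 75.6 FPKM in burned corneas (log2 difference 1.12, SE 0.21, adjusted p = 0.0107). Cystm1 rose by 1.34 and Sprr1a by 1.69 (adjusted p = 0.0439). Desmoglein Dsg1 fell by 1.10, or by 0.91 without Alkali-burned 1. Sprr3 missed the threshold without Alkali-burned 2 (adjusted p = 0.0526) or Alkali-burned 3 (0.0537), and Sprr1a in each of the 6 fits that left out 1 library (0.0514 to 0.136). Loricrin, Lce3d and Lce3e had no read in Control and did not pass (adjusted p = 0.4535, 0.0560 and 0.314).

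Called keratins went in both directions. Krt6a, a keratin of wounded and hyperproliferative epithelium, has 2 gene IDs in the table. ENSRNOG00000068586 measured 25.5, 30.5 and 29.9 FPKM in Control and 79.0, 162 and 130.0 FPKM in burned corneas (log2 difference 2.01, SE 0.32, adjusted p = 0.004998). ENSRNOG00000070470, near it on chromosome 7, measured 15.3, 265 and 210.0 FPKM in Control and 29.4, 46.9 and 37.5 FPKM in burned corneas (-1.34, adjusted p = 0.420). How reads shared by near-identical keratin copies were split between them is not known, so neither direction stands for Krt6a as a whole. Krt23 rose from 3.215 ± 0.726 to 12.95 ± 1.015 FPKM (log2 difference 1.74, SE 0.27, adjusted p = 0.00414). Krt4, of conjunctival and non-keratinized epithelium, and Krt1, of skin, fell by 1.61 and 1.24; Krt4 was lost without any library but Control 1 (adjusted p 0.0502 to 0.0726) and Krt1 without Control 2 (0.0943), Control 3 (0.108), Alkali-burned 1 (0.113) or Alkali-burned 3 (0.0851). Krt17, another wound keratin, measured 75.8, 117 and 124 FPKM in Control and 195, 104 and 101 FPKM in burned corneas and did not pass (log2 difference 0.29, SE 0.41, adjusted p = 0.710).

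Several of the rising genes are neighbours. From S100a1 to S100a10, chr2:175993922-179229661 in build mRatBN7.2, lies the block of cornified envelope and S100 genes called the epidermal differentiation complex; the block was singled out after its values had been seen. The table holds 93 genes there, of which 26 were tested and 8 rose (30.8% against 4.42% over all genes), with a median of 1.51. Within it, S100a6, a calcium-binding protein of proliferating and stromal cells, measured 85.0, 90.65 and 127 FPKM in Control and 1070, 842 and 886 FPKM in burned corneas (log2 difference 3.21, SE 0.38, adjusted p = 0.00105), and S100a4, known from migrating fibroblasts, 2.835, 5.44 and 10.2 FPKM in Control and 35.25, 20.15 and 31.7 FPKM in burned corneas (log2 difference 2.17, SE 0.34, adjusted p = 0.00450). Other members of the block were not called: S100a10 differed by -0.03, S100a11 by 0.17, S100a14 by 0.30 and S100a16 by 0.30. S100a8 and S100a9, the calprotectin pair abundant in neutrophils and stressed epithelium, measured 75.1, 43.4 and 62.5 FPKM in Control and 1528, 128 and 174 FPKM in burned corneas and 122.5, 111 and 124 FPKM in Control and 2037, 423 and 474 FPKM in burned corneas. Every burned value exceeded every Control value for both, yet Alkali-burned 1 was 8.79 and 4.30 times the next library, and neither difference passed (2.44 with adjusted p = 0.296, and 2.63 with 0.137).

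Several secreted antimicrobial and surface defence genes rose. Of 16 tested, 6 rose, with a median of 1.15. Defb14, a beta-defensin, measured 23.1, 28.1 and 26.1 FPKM in Control and 381, 433 and 451 FPKM in burned corneas (log2 difference 3.98, SE 0.66, adjusted p = 0.00634). Slpi, an inhibitor of neutrophil elastase with antibacterial activity, measured 245, 494 and 401 FPKM in Control and 2220, 1512 and 1512 FPKM in burned corneas (log2 difference 2.23, SE 0.39, adjusted p = 0.008025). Lyz2, the lysozyme of macrophages, measured 5.05, 3.835 and 7.06 FPKM in Control and 35.7, 38.35 and 38.5 FPKM in burned corneas (log2 difference 2.64, SE 0.28, adjusted p = 0.000537). Groups were wide apart for all 3, and for Lyz2 the burned libraries differed by less than 3 FPKM. Chi3l1, a chitinase-like glycoprotein of inflammation, rose from 6.06 ± 0.859 to 52.1 ± 24.9 FPKM (log2 difference 2.82, SE 0.27, adjusted p = 0.0002745) and Cd14, the co-receptor for bacterial lipopolysaccharide, from 33.2 ± 7.28 to 86.8 ± 12.4 FPKM (log2 difference 1.37, SE 0.22, adjusted p = 0.00500). The siderophore binder Lcn2 measured 9.65, 15.9 and 18.8 FPKM in Control and 41.8, 43.1 and 41.7 FPKM in burned corneas and did not pass (log2 difference 1.5, SE 0.64, adjusted p = 0.1875). The sixth called member, Wfdc18, rested on 0 to 4 Control reads and passed only in full and without Control 3 (adjusted p 0.0623 to 0.0997 without the others).

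Complement had the highest share of called genes of any list with 5 or more tested genes. Of 13 tested, 9 rose, a share of 69.2%, with a median of 1.34. Serping1, the C1 inhibitor, measured 19.9, 15.3 and 15.7 FPKM in Control and 170.2, 93.1 and 96.1 FPKM in burned corneas (log2 difference 2.70, SE 0.24, adjusted p = 0.000197). C1s, the protease of the first component, measured 6.24, 4.91 and 5.49 FPKM in Control and 47.6, 24.25 and 24.6 FPKM in burned corneas (log2 difference 2.27, SE 0.26, adjusted p = 0.000861). C1qa, a chain of the recognition subunit made by macrophages, measured 4.26, 1.95 and 1.70 FPKM in Control and 15.3, 15.8 and 19.8 FPKM in burned corneas (log2 difference 2.36, SE 0.35, adjusted p = 0.003115). In each of these every burned library was above every Control library, with Alkali-burned 1 the highest for Serping1 and C1s but not for C1qa. C1qc rose by 2.21, C4a by 1.99 and the alternative pathway protease Cfd by 3.18, or by 2.56 without Control 2, the library in which it had no read. The central component C3 measured 0.229, 0.0836 and 0.292 FPKM in Control and 2.08, 0.644 and 0.883 FPKM in burned corneas (log2 difference 0.82, SE 0.28, adjusted p = 0.0970), and the membrane regulators Cd55 and Cd59 differed by -0.01 and 0.64. Of the 9 rises, 6 kept their call without any 1 library, and the list gave 6 to 9 rises over those fits.

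Cytokine genes rose in part, with few reads. Of 20 tested, 6 rose (30%, against 4.42% of all genes), and the median was 1.08. In 15 of the 20 every burned value lay above every Control value, against 19.1% of all genes. Tnfsf9, the ligand of a costimulatory receptor on T cells, rose by 2.16 from 0 or 1 read in Control to 11 to 19 (adjusted p = 0.00500) and kept its call without any 1 library. Il6 measured 3.555, 2.145 and 2.21 FPKM in Control and 20.04, 9.15 and 12.6 FPKM in burned corneas (log2 difference 2.00, SE 0.42, adjusted p = 0.01635). Tnf measured 3.93, 9.05 and 7.89 FPKM in Control and 17.9, 25.35 and 35.4 FPKM in burned corneas (log2 difference 1.79, SE 0.38, adjusted p = 0.0160). Both of these pyrogenic cytokines were higher in every burned library, yet Tnf missed the threshold without Alkali-burned 3 (adjusted p = 0.0616) and Il6 without Control 2 (0.0582), Control 3 (0.0535), Alkali-burned 1 (0.0606) or Alkali-burned 3 (0.0503). Il1b measured 13.8, 6.87 and 9.53 FPKM in Control and 25.95, 31.1 and 26.9 FPKM in burned corneas and did not pass (log2 difference 1.43, SE 0.53, adjusted p = 0.132), nor did its antagonist Il1rn (0.17, adjusted p = 0.833). Leaving out 1 library gave 1 rise without Alkali-burned 3, 2 without Control 2 or Alkali-burned 1 and 3 without Control 3, and leaving out both Control 1 and Alkali-burned 1 gave 2. Of 17 cytokine receptors 1 was called (5.88%, close to the 5.69% over all genes). It was the chemerin-binding Ccrl2, which rose (log2 difference 1.43, SE 0.27, adjusted p = 0.0104). Rarres2, which encodes chemerin itself, measured 7.49, 5.60 and 4.56 FPKM in Control and 59.2, 35.6 and 42.4 FPKM in burned corneas (log2 difference 2.75, SE 0.26, adjusted p = 0.0002745).

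Some chemokines rose. Of 21 tested, 5 rose and 1 fell (median 1.26). Cxcl1, a neutrophil attractant, measured 314, 466 and 455 FPKM in Control and 2055, 1344 and 1381 FPKM in burned corneas (log2 difference 1.94, SE 0.25, adjusted p = 0.00168). Cxcl14, made by resting epithelia, measured 31.6, 36.6 and 33.1 FPKM in Control and 11.85, 4.92 and 8.21 FPKM in burned corneas (log2 difference -1.96, SE 0.24, adjusted p = 0.00118). Their groups did not overlap, and Alkali-burned 1 was the highest burned library for both. Ccl4, an attractant of macrophages, rose by 1.32 (adjusted p = 0.0119) and Ccl7, of monocytes, by 1.85 (0.0217; 0.0754 without Control 3). Ccl2, the main monocyte attractant, measured 546, 879 and 579.9 FPKM in Control and 3456, 1280 and 1274 FPKM in burned corneas and narrowly missed the threshold (log2 difference 1.45, SE 0.41, adjusted p = 0.05605). The remaining rises, Ccl19 and Cxcl3, were lost in each of the 6 fits that left out 1 library (adjusted p 0.0576 to 0.144). The list gave 2 rises without Control 3, 3 without Control 2 or any 1 burned library, and 1 without both Control 1 and Alkali-burned 1.

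Of 25 NF-kB and TNF response genes 4 rose (median 0.38). The leukocyte adhesion molecules Vcam1 and Icam1 measured 1.865, 0.910 and 1.29 FPKM in Control and 9.11, 6.41 and 7.37 FPKM in burned corneas (log2 difference 1.88, SE 0.19, adjusted p = 0.000454) and 1.92, 3.83 and 2.67 FPKM in Control and 12.4, 9.05 and 11.35 FPKM in burned corneas (log2 difference 1.67, SE 0.23, adjusted p = 0.00236). Sod2, the mitochondrial superoxide dismutase, measured 27.5, 37.0 and 34.1 FPKM in Control and 204, 93.3 and 95.9 FPKM in burned corneas (log2 difference 1.87, SE 0.36, adjusted p = 0.0110). All burned libraries lay above Control for these 3. The feedback inhibitor Nfkbia, however, measured 505.5, 1061 and 1107 FPKM in Control and 1093, 1140 and 1170 FPKM in burned corneas, with overlapping groups (log2 difference 0.43, SE 0.26, adjusted p = 0.346), and Tnfaip3 differed by 0.99 (adjusted p = 0.0112), under the fold threshold. The prostaglandin synthase Ptgs2 measured 62.5, 18.6 and 22.5 FPKM in Control and 47.0, 20.9 and 24.3 FPKM in burned corneas (log2 difference -0.05, SE 0.43, adjusted p = 0.963). The subunit genes Rela (0.12), Nfkb1 (0.31) and Rel (-0.04) were within 0.5 of 0. Ier3, the fourth call, was at 1.06 and fell under the fold threshold without Control 2 (0.96), Control 3 (0.99) or Alkali-burned 1 (0.97).

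NF-kB binds a short DNA element, the kappa B site, and 3 promoters of genes that rose are shown because each holds that element upstream of the start. The sequences are from RefSeq in build GRCr8, which is not the build of the expression table, and run 5′ to 3′ on the gene's strand from 250 bases before the transcription start to 50 after it; capitals mark the match. Cxcl1 is at chr14:17479272-17479571 (minus strand), Vcam1 at chr2:206742734-206743033 (minus strand) and B2m, described with the class I genes, at chr3:129549080-129549379 (plus strand).
Cxcl1: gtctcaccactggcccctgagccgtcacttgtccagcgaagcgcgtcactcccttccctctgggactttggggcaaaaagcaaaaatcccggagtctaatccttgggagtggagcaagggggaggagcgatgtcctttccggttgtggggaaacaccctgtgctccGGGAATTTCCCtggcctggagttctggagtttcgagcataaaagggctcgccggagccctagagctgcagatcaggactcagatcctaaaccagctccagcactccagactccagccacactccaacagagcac
Vcam1: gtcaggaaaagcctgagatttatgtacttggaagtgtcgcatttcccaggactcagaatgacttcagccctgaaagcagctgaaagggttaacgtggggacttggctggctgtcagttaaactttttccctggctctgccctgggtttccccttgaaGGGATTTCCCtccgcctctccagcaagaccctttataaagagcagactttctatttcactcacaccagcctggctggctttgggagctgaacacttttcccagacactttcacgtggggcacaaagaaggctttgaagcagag
B2m: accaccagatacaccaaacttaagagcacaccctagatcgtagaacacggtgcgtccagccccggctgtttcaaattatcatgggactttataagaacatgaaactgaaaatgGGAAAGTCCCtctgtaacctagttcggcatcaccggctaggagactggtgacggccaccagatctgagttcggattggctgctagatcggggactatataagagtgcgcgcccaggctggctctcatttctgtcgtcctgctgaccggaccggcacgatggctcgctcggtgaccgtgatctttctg
The matches start 84 bases before the start site in Cxcl1, where overlapping matches on both strands make a run of 11 letters, 93 bases before it in Vcam1 and 137 bases before it in B2m. Of the 6112 genes tested 4129 had a promoter in the table, 162 of them among the 270 that rose and 40 among the 78 that fell. A kappa B site on either strand was found in 25 of the 162 promoters of genes that rose (15.4%), in 6 of the 40 of genes that fell (15%), in 10.4% of all tested and in 7.51% of the 33469 promoters of the table. The CArG box, the element through which serum response factor drives contractile genes, was found in 3 of 162 (1.85%) against 1.36% of all tested. The 3 were Cited1, Glipr2 and Gstp1, and Tagln, Acta2, Tpm1, Tpm2 and Myl9 were not among them. Cited1 had a log2 difference of 3.41 (SE 0.64, adjusted p = 0.0104), with 0, 0 and 1 read in Control and 116, 42 and 43 in burned corneas. A match is a description of letters and does not show binding.

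Some interferon response genes rose. Of 29 interferon response genes 8 rose (median 0.80), and 5 without Alkali-burned 2 or Alkali-burned 3. Gbp2, a guanylate-binding protein of intracellular defence, measured 4.42, 4.64 and 4.05 FPKM in Control and 24.1, 29.9 and 26.3 FPKM in burned corneas (log2 difference 2.37, SE 0.25, adjusted p = 0.000537). B2m, the light chain of class I molecules, measured 98.1, 71.75 and 82.5 FPKM in Control and 202, 223 and 234 FPKM in burned corneas (log2 difference 1.38, SE 0.26, adjusted p = 0.00988). Psmb9, a subunit of the proteasome that cuts peptides for class I, measured 4.77, 6.63 and 7.31 FPKM in Control and 15.95, 19.8 and 18.0 FPKM in burned corneas (log2 difference 1.40, SE 0.20, adjusted p = 0.00303). None of these 3 overlapped between groups, and Psmb10 (at 1.41) and Ifitm3 (1.35) also held without any 1 library. Cmpk2, Irf1 and Psmb8 were also called higher, less firmly. Cmpk2 was lost without Control 3, Alkali-burned 2 or Alkali-burned 3 (adjusted p 0.0633 to 0.07585). Irf1 was lost without Control 1 (a difference of 0.79), Alkali-burned 2 or Alkali-burned 3, and Psmb8 in each of the 6 fits that left out 1 library. Several classic antiviral genes did not pass: Mx1 was at 0.14 (adjusted p = 0.822), Ifit3 at 0.60 (0.314), Rsad2 at 0.54 (0.251) and Cxcl10 at 0.67 (0.4525).

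The rat class I heavy chains, chosen for description after their values had been seen, also held rises. Of 8 class I RT1 genes tested 5 rose, with a median of 1.72. RT1-CE2 measured 10.3, 12.2 and 15.1 FPKM in Control and 80.3, 79.6 and 64.8 FPKM in burned corneas (log2 difference 2.50, SE 0.30, adjusted p = 0.00116) and RT1-CE14 7.77, 9.95 and 10.2 FPKM in Control and 47.1, 47.0 and 42.0 FPKM in burned corneas (log2 difference 2.18, SE 0.29, adjusted p = 0.00180), each without overlap. The class II list had 8 genes tested and 1 called, Cd74 (median 0.66), or 2 without Control 1. RT1-Da, the class II alpha chain, measured 5.56, 3.255 and 4.44 FPKM in Control and 8.30, 10.3 and 8.445 FPKM in burned corneas and differed by 0.90 (adjusted p = 0.0496). Cd74, the chain that escorts class II molecules, rose from 9.62 ± 2.65 to 36.7 ± 5.49 FPKM (log2 difference 1.85, SE 0.29, adjusted p = 0.00480). The difference between the classes was not tested, and RT1 genes are near-identical copies between which reads may be split.

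**Figure D3:**
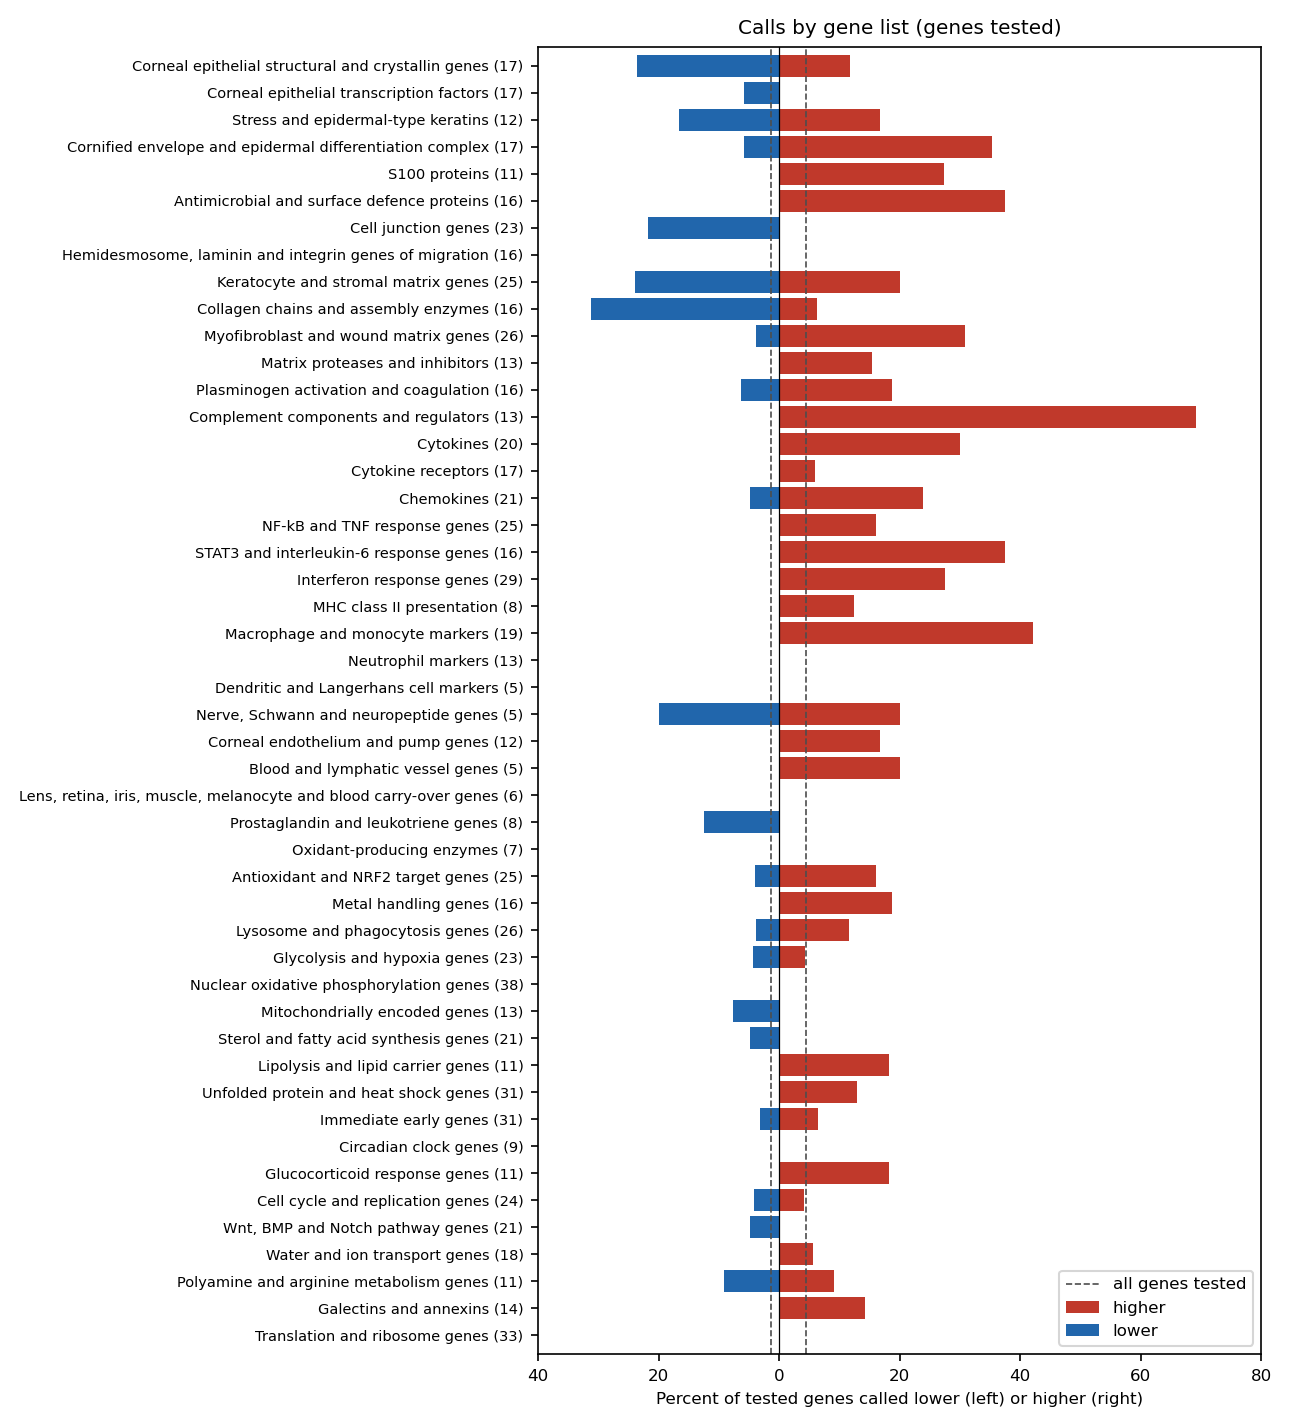
Share of tested genes called lower (bars to the left) or higher (bars to the right) in each gene list with at least 5 genes tested, in percent, with the number of genes tested in brackets and dashed lines at the shares over all genes tested (1.28% lower, 4.42% higher). Complement has the longest bar to the right (69.2%), and collagen and keratocyte lists the longest to the left.

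Several macrophage markers rose. Of 19 macrophage and monocyte genes tested, 8 rose (median 0.99), and the 11 defining markers summed to 177 to 183 RPM in Control and 528 to 655 in burned libraries. Cd68, a lysosomal membrane protein of phagocytes, measured 48.05, 79.1 and 69.5 FPKM in Control and 149, 189 and 189 FPKM in burned corneas (log2 difference 1.43, SE 0.22, adjusted p = 0.003775). Tyrobp, a signal adaptor of myeloid receptors, measured 4.27, 1.76 and 1.79 FPKM in Control and 10.6, 13.3 and 8.95 FPKM in burned corneas (log2 difference 1.78, SE 0.32, adjusted p = 0.00868). Both held without any 1 library, as did C1qa, C1qc, Cd14 and Lyz2, described above. Aif1 rose by 1.85 and passed only in full and without Control 1 (adjusted p 0.0568 to 0.109 without the others), and C1qb by 1.34 (0.0527 without Control 2 or Alkali-burned 3). The macrophage enzyme Arg1 measured 19.15, 22.3 and 17.9 FPKM in Control and 13.1, 20.9 and 22.8 FPKM in burned corneas (log2 difference -0.09, SE 0.25, adjusted p = 0.865) and Apoe differed by 0.34. Of the defining markers Adgre1 and Cd163 had at most 4 reads in a library.

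Neutrophil markers were higher in burned libraries without passing the test. Of 13 tested, 12 had every burned value above every Control value, against 19.1% of all genes, and the median was 0.74. In limma 0 were called, with 4 at an unadjusted p below 0.05; voom on the reads called 1 of 15 and limma on log2 RPM 4 of 15. The defining markers summed to 344 to 391 RPM in Control against 6645, 1287 and 1457 in burned libraries, but S100a8 and S100a9 supplied nearly all of it: Fpr1, Mmp8 and Mpo had no read in any of the 6 libraries, and Csf3r, Cxcr2 and Elane at most 2. Markers of T and NK cells (at most 10 reads summed in a library, with Nkg7 at 0), B cells (at most 2) and mast cells (at most 3) were near the floor in both groups. Vessel markers overlapped between groups, as did the keratocyte sum.

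**Figure D4:**
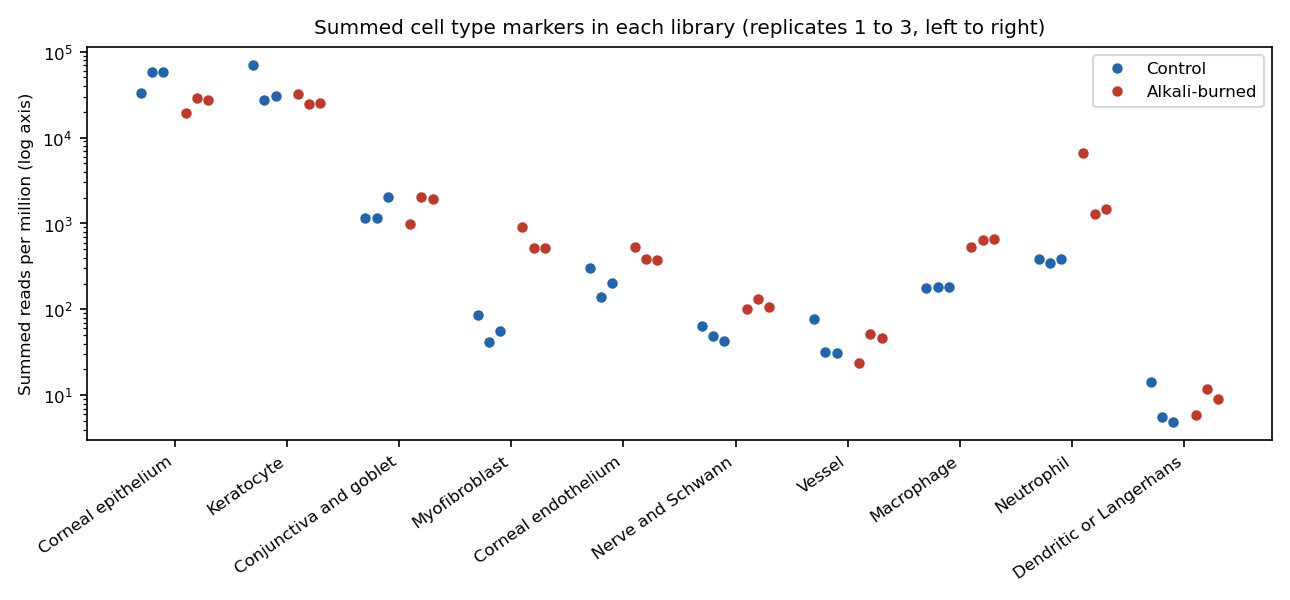
Summed RPM of cell type markers in each library, on a log axis; blue points are Control and red points Alkali-burned replicates 1 to 3 from left to right. Macrophage, myofibroblast, neutrophil, endothelium and nerve sums lie higher in every burned library, epithelial sums lower, and Alkali-burned 1 stands at 6645 for neutrophil markers.

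Some metal-binding genes rose. Of 16 metal handling genes 3 rose (median 0.73). Mt2A and Mt1, metallothioneins that bind zinc and copper, measured 1001, 408 and 536 FPKM in Control and 2662, 1575 and 1710 FPKM in burned corneas (log2 difference 1.68, SE 0.33, adjusted p = 0.0123) and 81.1, 49.2 and 65.4 FPKM in Control and 263.5, 159 and 191 FPKM in burned corneas (log2 difference 1.63, SE 0.22, adjusted p = 0.00197). Ftl1, the light chain of the iron store ferritin, measured 173, 86.5 and 98.8 FPKM in Control and 497, 343 and 313 FPKM in burned corneas for the highest of its 3 gene IDs (log2 difference 1.72, SE 0.26, adjusted p = 0.003775). The other IDs of Ftl1 were not among the 3 rises. How reads were split between the IDs is not known, so this rise does not stand for Ftl1 as a whole. For Mt2A, Mt1 and this ID all burned values were above Control, and Alkali-burned 1 was the highest in each. The heavy chain Fth1 differed by 0.56 and the zinc importer Slc39a4 by 0.88, both under the fold threshold. Heme oxygenase, Hmox1, measured 65.0, 23.4 and 19.15 FPKM in Control and 43.5, 17.8 and 20.3 FPKM in burned corneas (log2 difference -0.29, SE 0.46, adjusted p = 0.754), and the NRF2 target Nqo1 differed by -0.73 (adjusted p = 0.175). Over 25 antioxidant and NRF2 target genes 4 rose and 1 fell, with a median of 0.08 close to that of all genes, and without both Control 1 and Alkali-burned 1 there were 1 rise and 2 falls. Without Alkali-burned 1 or Alkali-burned 3 there were 2 rises.

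Lysosomal proteases rose in part. Of 26 lysosome and phagocytosis genes 3 rose and 1 fell (median 0.42). Ctsz, a carboxypeptidase of the lysosome, measured 0.955, 1.05 and 1.74 FPKM in Control and 8.94, 11.5 and 8.77 FPKM in burned corneas (log2 difference 2.26, SE 0.19, adjusted p = 0.000156). Ctsb, an abundant cysteine protease, measured 62.1, 84.7 and 64.3 FPKM in Control and 154, 177 and 169.7 FPKM in burned corneas (log2 difference 1.25, SE 0.17, adjusted p = 0.002055), and Gas6, the bridge by which phagocytes bind dying cells, 3.44, 3.59 and 2.55 FPKM in Control and 9.90, 8.97 and 9.35 FPKM in burned corneas (log2 difference 1.32, SE 0.20, adjusted p = 0.003775). The 3 held without any 1 library. Ctsd differed by 0.42, Ctsl by 0.34 and Lamp1 by -0.02, none called. Cst6, a cysteine protease inhibitor of epithelium, fell by 1.17 and passed only in full and without Control 1 (adjusted p 0.0711 to 0.137 without the others). Lgals1, a galectin of mesenchyme, and Lgals3bp, a secreted galectin binder, rose by 1.83 and 2.23, and Lgals3 was at -0.31 (adjusted p = 0.546).

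Some stress protein genes rose. Of 31 unfolded protein and heat shock genes 4 rose (12.9%, against 4.42% of all genes), with a median of 0.47. In 12 of the 31 every burned value lay above every Control value, against 19.1% of all genes. The constitutive chaperone Hspa8 measured 82.3, 38.4 and 43.6 FPKM in Control and 180.0, 121 and 115.5 FPKM in burned corneas (log2 difference 1.38, SE 0.27, adjusted p = 0.0112), and Chac1, which breaks down glutathione under stress, 7.65, 12.9 and 14.35 FPKM in Control and 28.3, 35.3 and 29.0 FPKM in burned corneas (log2 difference 1.37, SE 0.27, adjusted p = 0.0130). Hspa5, the chaperone of the endoplasmic reticulum, differed by 0.65 (adjusted p = 0.0329) and Atf3 by -0.34 (0.493). Without Control 1 this list gave 10 rises and 1 fall, and without both Control 1 and Alkali-burned 1 it gave 8 and 1. Of 31 immediate early genes 2 rose and 1 fell (9.68% called, against 5.69% over all genes), with 5 rises without Control 1. Fos was at 0.29, Jun at -0.06 and Egr1 at 0.40. The phosphatase Dusp2 rose from 2.23 ± 0.433 to 9.39 ± 2.02 FPKM (log2 difference 1.68, SE 0.22, adjusted p = 0.00180).

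Hormone and nerve-related transcripts changed singly. Npy, neuropeptide Y, measured 214, 431 and 318 FPKM in Control and 57.75, 58.8 and 56.5 FPKM in burned corneas (log2 difference -2.40, SE 0.41, adjusted p = 0.00705); the burned values lay within 56.5 to 58.8 FPKM while Control varied by 2.02 times. Penk, the precursor of opioid enkephalins, had no read in Control and 18, 14 and 13 reads in burned corneas, at least 9.80-fold higher in RPM than 3 reads over the pooled Control libraries (adjusted p = 0.00988). Adm, adrenomedullin, a vasodilator peptide induced by hypoxia, measured 70.5, 100.5 and 104 FPKM in Control and 24.9, 19.5 and 21.4 FPKM in burned corneas (log2 difference -2.00, SE 0.29, adjusted p = 0.00302). Of 23 glycolysis and hypoxia genes tested 1 rose and 1 fell, Adm (8.7% called, against 5.69% over all genes). The rise was lost in at least 1 of the fits that left out 1 library. Vegfa, Slc2a1 and Ndrg1, also induced by hypoxia, were not called. Vegfa measured 7.64, 3.46 and 3.66 FPKM in Control and 11.7, 7.11 and 7.55 FPKM in burned corneas (log2 difference 0.77, SE 0.34, adjusted p = 0.207), Slc2a1 differed by -0.39 and Ndrg1 by -0.01. Nerve and Schwann markers summed to 42.3 to 63.8 RPM in Control and 101 to 132 in burned libraries, with Nefl at 0 throughout. Without both Control 1 and Alkali-burned 1 Penk was not called.

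Car2 and Ca3, counted with the endothelial pump genes, rose from near the detection floor. These carbonic anhydrases, which speed bicarbonate exchange, measured 0.271, 0.1485 and 0.389 FPKM in Control and 6.115, 5.93 and 5.245 FPKM in burned corneas (log2 difference 2.42, SE 0.34, adjusted p = 0.00272) and 0.148, 0.0814 and 0.213 FPKM in Control and 7.44, 4.79 and 4.86 FPKM in burned corneas (log2 difference 2.52, SE 0.38, adjusted p = 0.003775). Control levels of both came from 1 to 6 reads a library, against 82 to 121 in burned corneas. The other 10 of the 12 genes in the list were not called, among them the bicarbonate transporter Slc4a11 (0.28) and the collagen Col8a2 of Descemet's membrane (0.54). The 5 endothelial markers summed to 139 to 304 RPM in Control and 375 to 535 in burned libraries. Their part in the rise of Car2 and Ca3 was not tested.

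Among 38 nuclear genes of oxidative phosphorylation limma called 0, with 3 at an unadjusted p below 0.05, a median of -0.03 and 0 calls by voom. Among 33 translation genes limma called 0, with 13 at an unadjusted p below 0.05, a median of 0.30 and 0 calls by voom; 15 of the 33 had every burned value above every Control value, against 19.1% of all genes. Of 26 genes tested on the mitochondrial chromosome 4 fell (15.4%, median -0.62), 1 of them a ribosomal RNA and 2 transfer RNAs. Of the 13 that code for protein 7 had every burned value below every Control value, against 10% of all genes. Of these 13, 1 was called (7.69%, against 5.69% over all genes). It was Mt-nd3, which fell by 1.02, with differences of -0.92 without Control 1 and -0.93 without Alkali-burned 1. Odc1, the first enzyme of polyamine synthesis, measured 29.2, 29.8 and 25.7 FPKM in Control and 11.45, 8.30 and 8.24 FPKM in burned corneas (log2 difference -1.51, SE 0.18, adjusted p = 0.00119). Ccnd1, the cyclin of the G1 phase, measured 29.6, 45.4 and 43.9 FPKM in Control and 8.70, 16.55 and 14.4 FPKM in burned corneas (log2 difference -1.53, SE 0.29, adjusted p = 0.0102), and Wnt4, a secreted Wnt ligand, 9.06, 15.3 and 13.9 FPKM in Control and 3.08, 5.998 and 4.49 FPKM in burned corneas (log2 difference -1.32, SE 0.25, adjusted p = 0.0112). None of these 3 overlapped between groups. Other cell cycle genes stayed near the threshold or under it, with Ccnb1 at 1.09 (0.95 without Control 1; adjusted p = 0.0514 without Alkali-burned 1), Cdk1 at 0.87 and Pcna at 0.18. Of 9 circadian clock genes limma called 0, with 1 at an unadjusted p below 0.05; voom, which tested 16, called 1 higher and 2 lower.

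Levels in the patch groups are set beside these without a test, since all comparisons with Control or burned corneas share libraries. Angptl7 averaged 167 ± 106 FPKM in Control and 6.12 ± 1.69 in burned corneas, and 15.8 ± 5.86 in SF/HA and 8.82 ± 3.99 in SF/HA-HEP-PAM corneas (SD, n = 3). S100a7a averaged 4.25 ± 0.470 and 84.4 ± 24.9 FPKM, and 18.2 ± 1.96 and 22.2 ± 5.22 in the same order. Adm averaged 91.6 ± 18.4 and 21.9 ± 2.75 FPKM, and 113 ± 26.2 and 179 ± 62.4. The low level of Adm was thus seen in the burned group and in neither patch group, that of Angptl7 was seen in all 3, and S100a7a lay between Control and burned levels with patches. Tagln averaged 0.295 ± 0.0574, 27.9 ± 10.99, 14.3 ± 9.27 and 6.27 ± 2.86 FPKM in the 4 groups, with a wide spread within SF/HA (5.62 to 24.1).

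**Figure D5:**
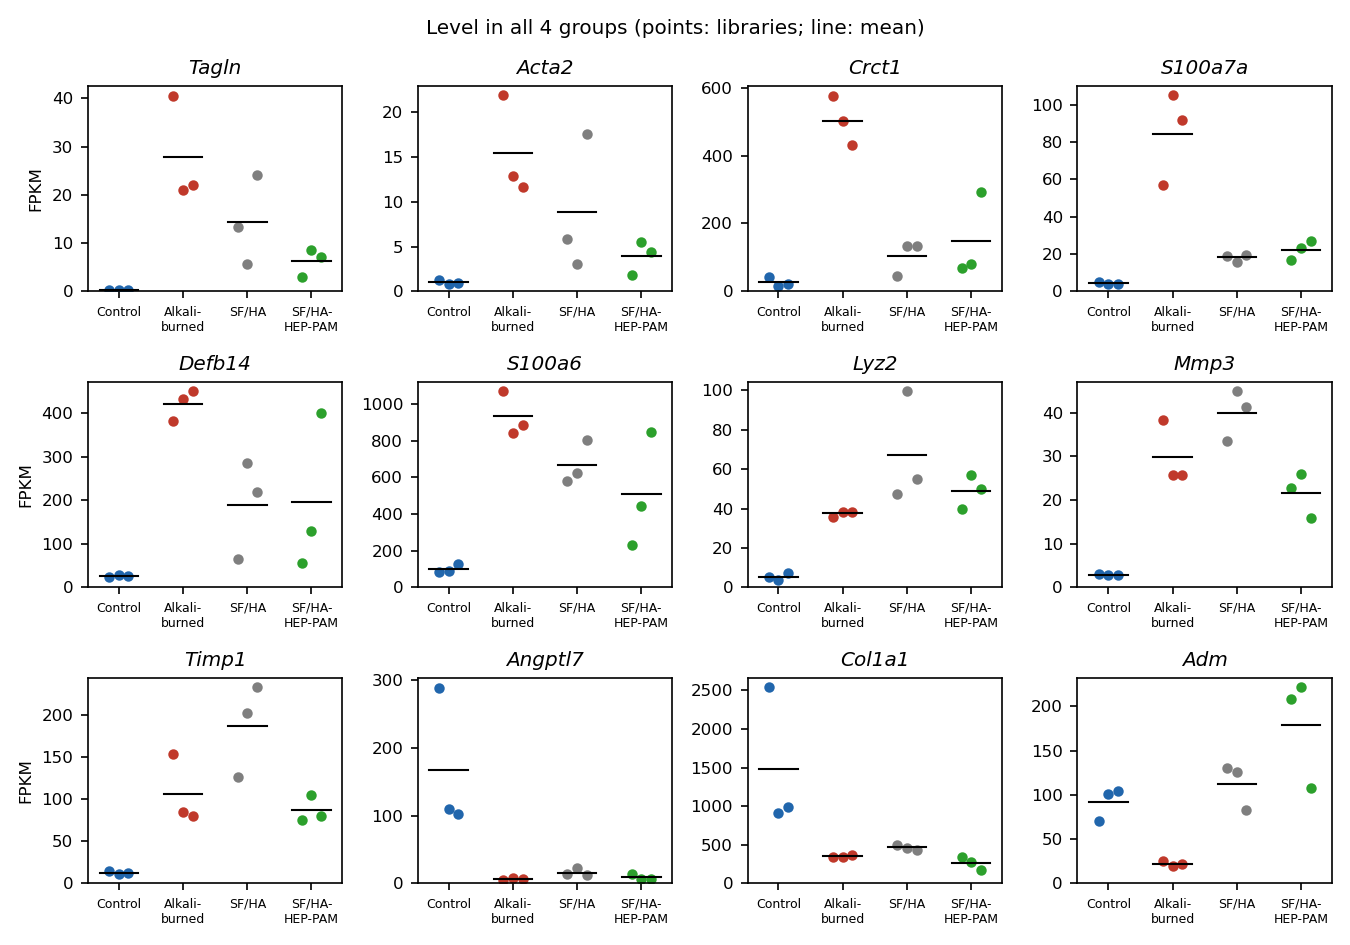
Level of 12 genes in all 4 groups, 3 libraries each; the vertical axis is FPKM from 0, points are libraries and lines group means. Angptl7 stays under 25 FPKM in every burned or patch library, and Adm is lower in the 3 burned libraries than in any other library.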

How the data were processed

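RNA was sequenced in 12 rat cornea libraries of 4 groups, and groups were taken from the sample labels. Per the labels' protocols, reverse transcription used barcoded poly(dT) primers with unique molecular identifiers. Whether duplicate molecules were collapsed is not given in the sources used here. The deposited table holds FPKM values made by the authors, 1 column per library, with a length column, here termed other, equal to the genomic span with introns, so levels cannot be compared between genes. Per the series text, reads were trimmed with fastp and counted with HTSeq-count. The tools listed by the submitters' processing notes are STAR, featureCounts, bcl2fastq, DESeq2 and fastp, with build mRatBN7.2; the counting tool thus differs between the sources. FPKM times length gave whole reads (largest relative deviation 2.16e-06), from which RPM (reads scaled to the library's total) was computed. Lines naming no gene (108 of 30560) were left out, 7092 genes had no symbol, and 0 sample columns were unmapped.

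The 6112 genes that reached 1 FPKM in 3 or more libraries were tested with limma 3.58.1 (R 4.3.3) on values of log2(FPKM + 1) from all 12 libraries, with 4 group means, a variance trend and Benjamini-Hochberg adjustment over all of them. A gene was called at an adjusted p below 0.05 and a log2 difference beyond 1. The fit was tested on simulated data. Intervals and floors cover counting error only. The comparison, gene lists and markers were chosen with earlier results of these data known. Named genes were drawn from the 25 largest rises and falls of at least 5 FPKM without overlap. They were also drawn from each list: called members up to 8, its highest member, and up to 3 members not called with the smallest adjusted p. The markers and a fixed set of corneal and inflammatory genes were further sources. Not every gene of these sets is described. Called genes left out include Il10, Il33, Csf2, Tfpi2, Jund, Ddit3 and several short RNA genes. Others named were chosen after their values were seen. Alternatives were other pseudocounts, filters, scalings, thresholds, weights, voom on reads, a replicate block and libraries left out. Figures were drawn with matplotlib 3.10.9 in Python 3.11.15.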

Additional observations from a re-analysis of the deposited data

How the results depend on the processing

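The counts of 270 rises and 78 falls became 141 and 47 with a pseudocount of 5 FPKM, 177 and 40 with no filter on low values, 454 and 205 with voom on the recovered reads, 516 and 203 on log2 RPM, 433 and 142 on the adjusted p alone, and 121 and 27 at an adjusted p below 0.01. Falls alone moved to 37 with only the 6 compared libraries and to 125 with library weights. Leaving out 1 library gave 187 to 301 rises and 43 to 115 falls, with 50 falls without Alkali-burned 1, 43 without Alkali-burned 3 and 115 without Control 1; leaving out both Control 1 and Alkali-burned 1 gave 245 and 94. The causes were not tested. Over 180 gene results and all settings, 3118 gene values kept their side of the threshold, 586 lost it, 21 gained it and 0 changed direction. Deviations of same-numbered Control and burned libraries correlated at 0.121, 0.0346 and 0.00581, so the numbers were not taken as pairs; libraries 2 and 3 of Control correlated best with another number. The replicate block gave 248 rises and 64 falls, of which 240 and 59 were called without it; among the 180 gene results 18 lost their call. Depth limits genes with a few Control reads, since 3 reads in a 1 kb gene are up to 6.17 FPKM.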

Other observations

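Long genes fall under a minimum in FPKM when length includes introns. Voom on the recovered reads tested 3534 genes that the FPKM rule left out, and called 106 higher and 71 lower in burned corneas (5.01%). Mrc1, the mannose receptor of macrophages, had 0, 0 and 2 reads in Control and 25, 27 and 38 in burned corneas. Tnfrsf11b, osteoprotegerin, a decoy receptor that restrains bone resorption, had 1, 0 and 0 reads against 35, 27 and 21. Both genes were read in each burned library and nearly absent from Control. Col8a1, a collagen of Descemet's membrane, had 3, 6 and 14 reads against 113, 61 and 65, and Cdh2, N-cadherin, 0, 3 and 5 against 31, 23 and 24. In the other direction Gap43, a protein of growing axons, had 61, 33 and 34 reads in Control and 5, 7 and 12 in burned corneas, and Mamdc2, a secreted proteoglycan, 105, 71 and 102 against 10, 5 and 5. These genes were chosen after their values were seen.

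Detection was one-sided as well: 242 genes had reads in all 3 burned libraries and none in Control, 13 of them with at least 20 reads, and 23 genes showed the reverse, 0 of them with 20. Burned libraries were deeper than Control libraries, and the part of depth in this difference was not tested.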
